A study of Mus musculus with 622 samples.

Results

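The endoplasmic reticulum (ER) folding machinery of mouse islet cells was described through 39 genes chosen by name, out of 44448 genes in the table. They comprise the ER chaperones of the Hsp70 and Hsp90 families (Hspa5, Hyou1, Hsp90b1), co-chaperones of BiP, the protein of Hspa5 (Dnajb9, Dnajb11, Dnajc3, Dnajc10, Sdf2l1), and the lectin chaperones Calr and Canx. Further members are 10 disulfide and proline enzymes (Pdia3, Pdia4, Pdia6, P4hb, Txndc5, Txndc11, Erp44, Ero1b, Ppib, Fkbp2) and the secreted ER stress proteins Manf and Creld2. Another 11 genes serve ER-associated degradation (Edem1, Edem2, Edem3, Herpud1, Syvn1, Sel1l, Derl1, Derl2, Derl3, Os9, Erlec1), and 6 are the stress sensors and regulators Xbp1, Atf6, Atf6b, Ern1 and Eif2ak3 with Wfs1. All 39 were found in the table by Entrez ID. The data come from 622 single cells. They were taken from pancreatic islets of the C57BL/6 strain, genotype wild type, and each was captured in its own chamber of a microfluidic chip. No treatment, animal, age or chip is named in the labels, so all cells formed 1 sample. Values below are therefore described without a test or a replicate error. Levels are in RPKM, the reads of a gene divided by its length in kilobases and by the mapped reads of that cell, on a scale common to all cells.

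A minimum of 1000 genes at 1 RPKM was met by 593 cells, of which 452 had at least 90% of their summed Ins1, Ins2, Gcg, Sst and Ppy RPKM in 1 hormone and entered a group. There were 395 insulin cells, 33 glucagon cells, 13 somatostatin cells and 11 pancreatic polypeptide (PP) cells, and 141 cells reached 90% for no hormone. The columns of the table came in 2 number formats, full precision (359 cells, median 811202 reads) and rounded to 4 decimals (263 cells, median 1607342 reads), and the values were also computed within each format. The insulin cells fell into 226 and 169 cells of these formats, the glucagon cells into 17 and 16, the somatostatin cells into 6 and 7, and the PP cells into 6 and 5. The groups differed in the number of genes at 1 RPKM, with medians of 5259, 4576, 4371 and 3798 for insulin, glucagon, somatostatin and PP cells. The share of RPKM in hormone genes also differed, at medians of 45.1, 43.3, 17.1 and 46.7 percent, and the mitochondrial share was 10.7, 14.8, 9.19 and 11.3 percent. Their part in the differences below was checked only through the alternatives named beside each result. Marker sums followed the hormone groups for the alpha list (median 12071 RPKM in glucagon cells, 444 in insulin cells) and the delta list (2533 in somatostatin cells, 0.493 in insulin cells). The beta list, which holds Iapp, had a median of 62786 in insulin cells but also 28153 in somatostatin cells, and the PP list, which holds Pyy, was nearly as high in somatostatin cells (57101) as in PP cells (65979). Markers of acinar, immune, stellate, endothelial or glial cells summed to 1000 RPKM or more in 14 insulin, 1 glucagon, 1 somatostatin and 3 PP cells. There were 6 pairs of columns that were near-identical (Pearson's r of log2(RPKM + 1) from 0.842 to 0.982, next highest pair 0.697), and 4 of these pairs were insulin cells.

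Proteins bound for secretion fold in the ER, where BiP and Hsp90b1 hold unfolded chains, calnexin and calreticulin retain glycoproteins, and disulfide isomerases with the oxidase Ero1b form disulfide bonds. Chains that fail are pulled back to the cytosol by the degradation machinery built around Sel1l and the ubiquitin ligase Syvn1. When unfolded protein gathers, the sensors Ire1 (Ern1), Perk (Eif2ak3) and Atf6 start the unfolded protein response, and Xbp1 and Atf6 then bind ER stress elements in the promoters of chaperone genes. Beta cells make proinsulin, which carries disulfide bonds, in large amounts, and loss of Perk or of Wfs1, the Wolfram syndrome gene, harms them.

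Some of the genes share a short promoter sequence, shown here because it is a common feature that the expression values did not enter. RefSeq promoter windows (build GRCm38.p6, 250 bases before to 50 after a gene's start) were found for 34 of the 39 genes. Derl1, Erlec1, Manf, Hyou1 and Atf6 had no window. The ER stress element, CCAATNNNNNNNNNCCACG on either strand, lay in the windows of 10 of these 34 genes, and in 39 of 32851 windows of all genes (0.119%). With 1 mismatch in its fixed letters it lay in 17 of the 34 genes and in 1.5% of all windows. The 11 exact elements are given 5' to 3' along their own strand with the fixed letters in capitals, and the distance runs from the start used by the window to the element's far end. For Ero1b that start is of a transcript that begins inside the annotated gene span, and for the other elements it is the gene's own start.

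Hspa5, chr2:34772025-34772043, + strand, 65 bases before the start: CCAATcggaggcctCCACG
Hsp90b1 upstream copy, chr10:86705638-86705656, - strand, 212 bases before the start: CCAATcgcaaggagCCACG
Hsp90b1 downstream copy, chr10:86705533-86705551, + strand, 107 bases before the start: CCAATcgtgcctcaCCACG
Dnajc3, chr14:118937827-118937845, + strand, 105 bases before the start: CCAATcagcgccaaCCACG
Calr, chr8:84847075-84847093, + strand, 162 bases before the start: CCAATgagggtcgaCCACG
Canx, chr11:50325800-50325818, - strand, 145 bases before the start: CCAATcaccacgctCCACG
Pdia6, chr12:17266491-17266509, + strand, 98 bases before the start: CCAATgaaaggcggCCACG
Ero1b, chr13:12565682-12565700, - strand, 201 bases before the start: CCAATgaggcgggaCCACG
Creld2, chr15:88819520-88819538, - strand, 126 bases before the start: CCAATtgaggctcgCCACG
Syvn1, chr19:6046532-6046550, + strand, 44 bases before the start: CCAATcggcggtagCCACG
Derl3, chr10:75893242-75893260, - strand, 156 bases before the start: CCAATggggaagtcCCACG

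The element was on the gene's own strand in 6 cases and on the opposite strand in 5, and the elements lay between 26 and 212 bases before the start. The related ER stress element II, ATTGG and CCACG with any 1 base between them on either strand, was in 12 windows of all genes (0.0365%), among them those of Herpud1 and Dnajb11. In Dnajb11 it lay after the start. The unfolded protein response element TGACGTG, searched on both strands, was in 2.01% of windows and in those of Hspa5, Txndc5 and Txndc11. The 250 bases before the start are shown for the 2 most abundant members and for Herpud1, a member with an ER stress element II, with the fixed letters of ER stress elements I and II in capitals and each sequence along the gene's strand. In Hsp90b1 the second element reads in reverse complement.

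Hspa5, chr2:34771840-34772089, + strand: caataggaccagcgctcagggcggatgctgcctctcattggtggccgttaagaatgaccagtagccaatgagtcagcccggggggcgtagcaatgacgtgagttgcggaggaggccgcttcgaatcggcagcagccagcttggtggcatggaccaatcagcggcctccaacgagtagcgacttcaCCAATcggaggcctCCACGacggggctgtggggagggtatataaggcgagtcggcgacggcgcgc
Hsp90b1, chr10:86705445-86705694, - strand: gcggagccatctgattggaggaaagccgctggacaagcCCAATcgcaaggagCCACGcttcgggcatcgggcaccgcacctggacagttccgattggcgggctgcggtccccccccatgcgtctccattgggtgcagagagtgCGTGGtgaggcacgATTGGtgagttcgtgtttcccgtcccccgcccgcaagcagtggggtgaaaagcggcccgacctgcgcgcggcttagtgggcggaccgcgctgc
Herpud1, chr8:94386179-94386428, + strand: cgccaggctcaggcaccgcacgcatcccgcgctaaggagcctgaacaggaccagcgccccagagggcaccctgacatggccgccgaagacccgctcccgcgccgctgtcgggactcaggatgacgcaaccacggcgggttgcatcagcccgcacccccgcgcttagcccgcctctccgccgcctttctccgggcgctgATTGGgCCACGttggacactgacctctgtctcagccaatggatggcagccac

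The 10 genes with an exact element were more abundant in insulin cells (median of their means 226 RPKM) than the 24 with a window but no exact element (30.7 RPKM). Their median log2 ratios to insulin cells were -1.26, -0.54 and -0.97 in glucagon, somatostatin and PP cells, against -1.07, -0.45 and -0.61 for the 24 others. Pairs among those with the element had a median Spearman's rho across insulin cells of 0.29 and 0.24 in the 2 column formats, against 0.17 and 0.21. A match of letters is a description and no evidence of binding in these cells.

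In insulin cells the 39 genes ranged in mean level from 1.70 RPKM for Ern1 to 655 RPKM for Hspa5, with a median of 35.0 RPKM. Chaperones and isomerases led, and 12 genes had a mean above 100 RPKM. The 6 most abundant were Hspa5, Hsp90b1 (554), Canx (393), P4hb (273), Pdia6 (269) and Pdia3 (261). The sensors were scarce, with means of 9.90 RPKM for Eif2ak3 and 17.3 for Atf6, and Atf6b was near the level of Ern1. The mRNA of Xbp1, which Ern1 splices, had a mean of 89.0 RPKM. In all, 32 of the 39 genes reached 1 RPKM in at least 50% of the insulin cells. The spread from cell to cell was wide. The coefficient of variation had a median of 1.43 and ran from 0.656 for Hsp90b1 to 3.94 for Derl3, and scarce genes had the largest values. Summed over the 39 genes, insulin cells had a median of 4240 RPKM (85.0 to 15707).

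**Figure D1:**
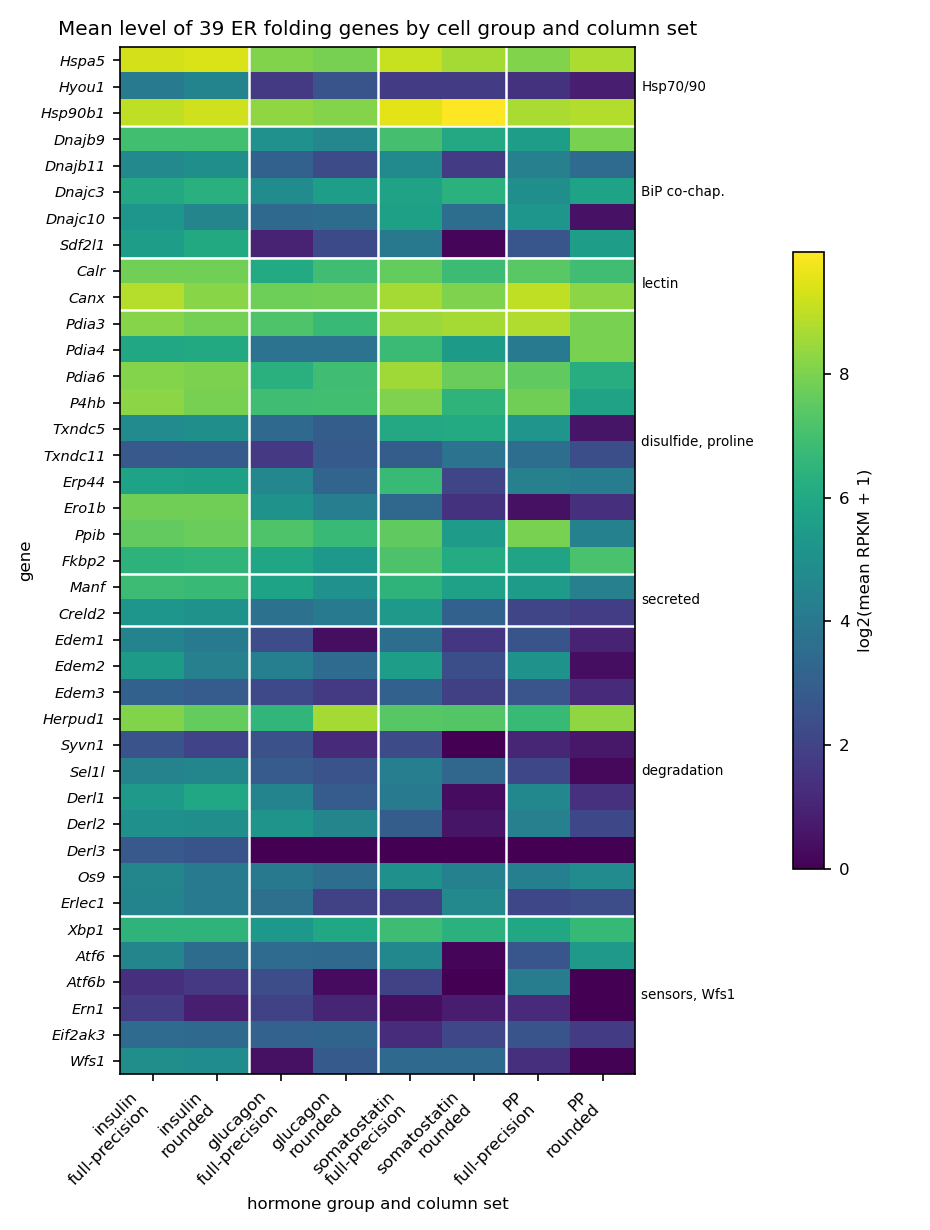
Mean level of the 39 genes as log2(mean RPKM + 1), with genes in rows ordered by role and 1 column for each hormone group within each column format. Hspa5 and Hsp90b1 are bright in every column, Ero1b and Wfs1 are darker in the 6 columns without insulin, and Derl3 is at 0 in those columns.

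Insulin cells had the highest mean of the 4 groups for 25 of the 39 genes, somatostatin cells for 8, PP cells for 5 and glucagon cells for 1. Glucagon cells had the lowest mean for 23 genes, PP cells for 8 and somatostatin cells for 7, and these 3 groups tied at 0 for Derl3. The same counts over all genes were not computed, so whether they are particular to these genes was not tested. Over all genes the median log2 ratio to insulin cells was also below 0, at -0.17, -0.02 and -0.30 in glucagon, somatostatin and PP cells. The summed level of the 39 genes had a median of 1971 RPKM in glucagon cells (301 to 4840), and only 1 of the 33 cells exceeded the insulin median. In somatostatin cells the median was 3661 (1672 to 6475), with 4 of 13 cells above the insulin median, and in PP cells it was 2426 (697 to 6400), with 2 of 11 above. The glucagon cells were thus the group set lowest, and all 3 groups overlapped the insulin cells. With RPKM rescaled without hormone and mitochondrial genes the medians were 4256 in insulin, 1964 in glucagon, 2943 in somatostatin and 2876 in PP cells.

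Against insulin cells, 24 of the 39 genes (61.5%) were at least 2-fold lower in glucagon cells and 0 were 2-fold higher, where 21.1% of the 11624 genes with a mean of at least 1 RPKM were that much lower and 10.7% that much higher. Ratios are log2((group mean + 1) / (insulin mean + 1)), and all 39 genes passed the minimum in each comparison. The median log2 ratio of the 39 genes was -1.23, against -0.17 over all genes, and 37 of the 39 were below 0. In both column formats taken separately, 16 of the 39 genes were at least 2-fold lower, as were 12.5% of all genes. With insulin cells matched to the glucagon cells in the number of detected genes, 22 of the 39 and 21% of all genes were 2-fold lower. Without the highest glucagon cell for each gene, a step that can only lower the glucagon mean, 30 of the 39 and 39.8% of all genes were 2-fold lower, and 0 of the 39 and 2.8% of all genes were 2-fold higher.

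In somatostatin cells 9 of the 39 genes (23.1%) were at least 2-fold lower, a share no larger than the 26% of all 11500 genes. One gene, Txndc5, was 2-fold higher, where 21.2% of all genes were. The median log2 ratio was -0.56, against -0.02 over all genes. In the rounded columns alone 22 genes were 2-fold lower, with a background of 44.5%, and rescaling without hormone and mitochondrial genes, which set the median of all genes at -0.32, gave 16. In PP cells 15 of the 39 (38.5%) were at least 2-fold lower and 1, Atf6b, was 2-fold higher, where 30.4% and 16.8% of 11457 genes were. The median log2 ratio was -0.82 against -0.30. For both groups the count moved with single cells. Without the highest cell for each gene, 19 genes were 2-fold lower in somatostatin cells (52% of all genes) and 29 in PP cells (57.5%). In both groups 0 of the 39 were then 2-fold higher, against 4.03% and 2.29% of all genes. In the somatostatin cells the share of the 39 genes then lay below the background, and in the PP cells above it. The 3 comparisons share the same insulin cells.

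**Figure D2:**
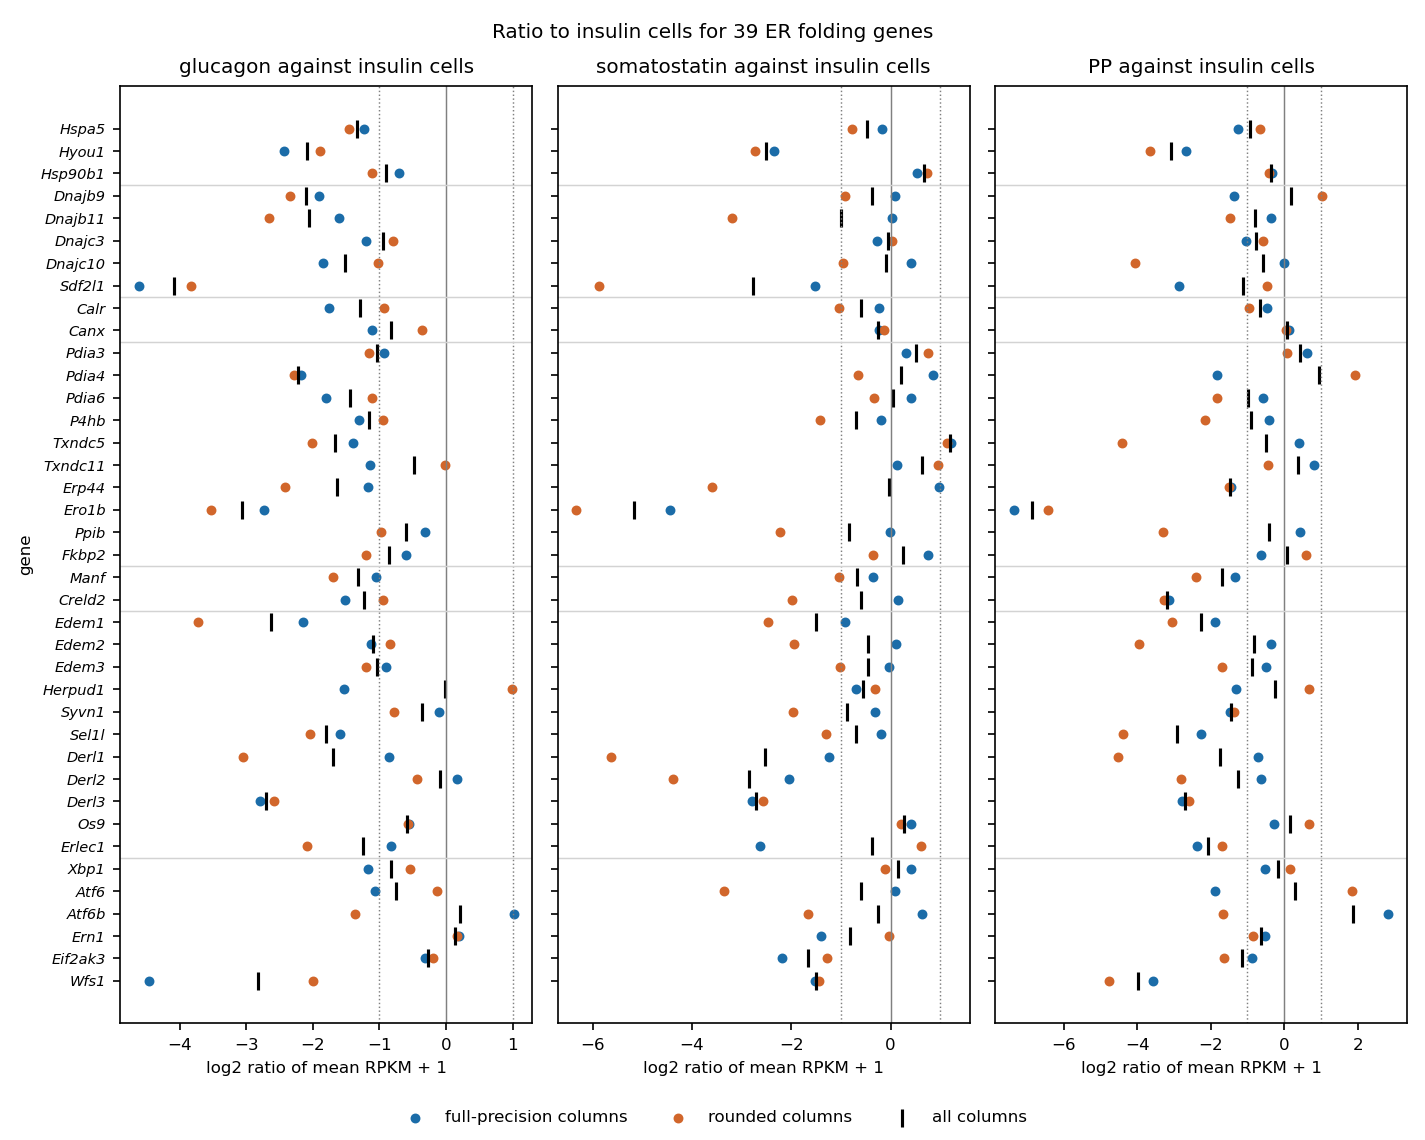
Log2 ratio of mean RPKM + 1 to insulin cells for each of the 39 genes (rows, by role) in glucagon, somatostatin and PP cells. Black ticks give all columns, points give the 2 column formats, and dotted lines mark 2-fold. Most ticks lie left of 0 in glucagon cells (37 of 39), while in somatostatin and PP cells the 2 formats are often far apart.

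Of the 39 genes, 7 were at least 2-fold lower in all 3 other groups, namely Hyou1, Sdf2l1, Ero1b, Edem1, Derl1, Derl3 and Wfs1, where 6.41% of the 10361 genes passing the minimum in all 3 comparisons were. Rescaling kept these 7 and added P4hb, Manf and Sel1l, where 7.42% of all genes were. Another 12 were 2-fold lower in none of the groups (Hsp90b1, Dnajc3, Canx, Txndc11, Ppib, Fkbp2, Herpud1, Os9, Xbp1, Atf6, Atf6b and Ern1). The share of all genes lower in none was not computed. The first list holds an oxidase, partners of BiP, degradation factors and Wfs1. Derl3 is in it because it was listed at 0 in all 3 groups. The first list also depended on the settings. Among the alternatives run, Sdf2l1 and Derl1 rose to -0.34 and -0.71 in PP cells, and Edem1 and Wfs1 to -0.85 and -0.98 in somatostatin cells. Derl1 also rose to -0.85 in glucagon cells, and Derl3 to 0 in all 3 groups. Hyou1 and Ero1b stayed at least 2-fold lower throughout. The second list holds Hsp90b1, Canx and most of the sensors, but it depended on single cells. Without the highest cell of each gene, Hsp90b1, Dnajc3, Txndc11, Fkbp2 and Xbp1 were 2-fold lower in glucagon cells. Ppib, Atf6 and Ern1 were then 2-fold lower in somatostatin and PP cells. That step can only lower a group's mean. The insulin means of Atf6b and Ern1 were near the pseudocount of 1 RPKM, which limits how low their ratios can go.

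Ero1b, the oxidase that hands disulfide bonds to protein disulfide isomerase (GRCm38, chr13:12565818-12609533), had the lowest ratio of the 39 genes in somatostatin and PP cells and the second lowest in glucagon cells. In insulin cells its level ran from 0.169 to 1072 RPKM with a median of 183 and a mean of 222. Glucagon cells ranged from 0 to 383 with a median of 2.96, somatostatin cells from 0 to 49.6 with a median of 1.01, and PP cells from 0 to 5.37 with a median of 0.368. Only 1 of 33 glucagon cells, 0 of 13 somatostatin cells and 0 of 11 PP cells exceeded the insulin median, and 387 of 395 insulin cells lay above the highest PP cell. The log2 ratios of the means were -3.07, -5.17 and -6.87, lower than those of nearly all genes, since only 1.14, 0.191 and 0.0349 percent of genes had a lower ratio. Both column formats gave the same order, with -2.74, -4.45 and -7.36 at full precision and -3.53, -6.33 and -6.43 in the rounded columns. The small annotated gene Gm25483 overlaps it. Its paralogue Ero1a, a hypoxia-responsive oxidase of the same kind, had a mean of 16.9 RPKM in insulin cells, with log2 ratios of -0.34, -2.64 and -1.94.

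Wfs1, which encodes wolframin of the ER membrane, had a median of 9.15 RPKM in insulin cells (0 to 512, mean 28.6) and of 0, 0.282 and 0 in glucagon (0 to 83.2), somatostatin (0 to 64.1) and PP cells (0 to 8.93). At least 1 RPKM was reached in 302 of 395 insulin cells, or 76.5% (exact Clopper-Pearson interval at 95%, 72.0 to 80.6), but in 6 of 33 glucagon cells and 1 of 11 PP cells. The somatostatin cells lay between, with 6 of 13. With every cell thinned to 250000 reads, at least 1 read was found in 78.0, 28.1, 46.2 and 9.09 percent of insulin, glucagon, somatostatin and PP cells. Intervals cover counting error only. The log2 ratios were -2.82, -1.49 and -3.98, and without the highest glucagon cell the first was -4.14.

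**Figure D3:**
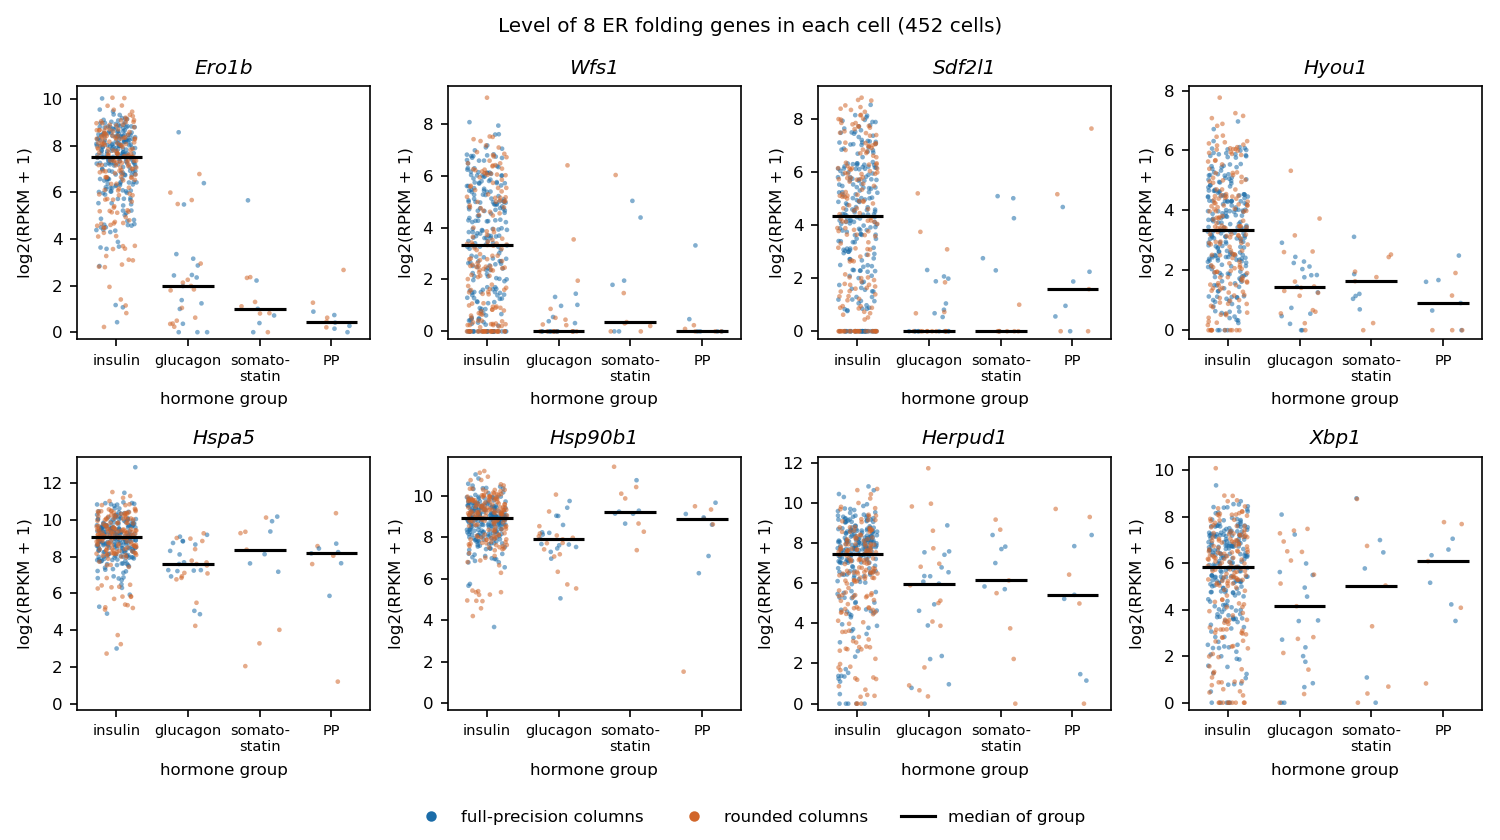
Level of 8 genes in each of the 452 grouped cells as log2(RPKM + 1), by hormone group, coloured by column format, with the group median as a bar. Ero1b separates the insulin cells from nearly all other cells, whereas Hspa5, Hsp90b1, Herpud1 and Xbp1 overlap widely.

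In the values that follow, levels are in the order insulin, glucagon, somatostatin and PP cells, and ratios are in the order glucagon, somatostatin and PP cells. Of the Hsp70 and Hsp90 chaperones, the abundant Hspa5 and Hsp90b1 overlapped widely between groups, while Hyou1 was low in all 3 other groups. BiP, from Hspa5, had medians of 543, 193, 331 and 288 RPKM in insulin (5.69 to 7360), glucagon (18.0 to 613), somatostatin (3.17 to 1149) and PP cells (1.33 to 1307). The glucagon cells were low, since 2 of 33 exceeded the insulin median, against 6 of 13 somatostatin cells and 1 of 11 PP cells. Its log2 ratios were -1.34, -0.47 and -0.94. Hsp90b1, the ER Hsp90, had medians of 494, 239, 605 and 481 RPKM, with ranges of 11.9 to 2353 in insulin and 166 to 2714 in somatostatin cells. Somatostatin cells had the highest mean, 886 RPKM, and 9 of 13 exceeded the insulin median, with log2 ratios of 0.53 and 0.74 in the 2 formats. After rescaling, that ratio was 0.34. Hyou1, a nucleotide exchange factor of BiP, had medians of 9.12, 1.73, 2.11 and 0.874 RPKM. Among the 13 somatostatin and 11 PP cells, 0 exceeded the insulin median of Hyou1, and its log2 ratios were -2.09, -2.52 and -3.09.

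All 5 BiP co-chaperones had lower means in glucagon than in insulin cells. Of these, 4 were 2-fold lower, where 21.1% of all genes were, with Dnajc3 at -0.95. Sdf2l1, which works with BiP and Dnajb11, had the lowest ratio of any member in glucagon cells. Its median was 19.2 RPKM in insulin cells (0 to 445) and 0 in glucagon cells (0 to 35.6), and 1 of 33 glucagon cells exceeded the insulin median. The log2 ratio was -4.08, with -4.61 and -3.83 in the formats. In somatostatin cells it was -2.76 and in PP cells -1.13, but the PP mean of 24.3 RPKM came largely from 1 cell at 198, without which the ratio was -2.81. Dnajb9, which restrains Ern1, had medians of 86.6, 2.53, 28.6 and 87.3 RPKM, so the PP median matched the insulin median while the glucagon median was low. Its log2 ratio in glucagon cells was -2.10. In PP cells the ratio was -1.38 for full precision but 1.02 for rounded columns.

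The lectin chaperones and isomerases were lower in glucagon cells and mixed elsewhere. Calr, which holds glycoproteins in the ER lumen, had medians of 193, 49.7, 92.8 and 117 RPKM and log2 ratios of -1.30, -0.60 and -0.66. Canx, its membrane partner, had medians of 348, 215, 153 and 363 RPKM and ratios of -0.83, -0.26 and 0.09. Of the 10 disulfide and proline enzymes, 7 were 2-fold lower in glucagon cells, 1 in somatostatin cells and 2 in PP cells. The shares of all genes were 21.1, 26 and 30.4 percent. P4hb, protein disulfide isomerase itself, had medians of 229, 92.8, 169 and 128 RPKM and ratios of -1.16, -0.70 and -0.89. Txndc5, another isomerase, was the member with the highest ratio in somatostatin cells. Its mean there was 65.8 RPKM against 28.2 in insulin cells, a log2 ratio of 1.19 with 1.22 and 1.14 in the 2 formats, but the medians were 10.8 in somatostatin and 6.89 in insulin cells. Rescaled, or without its highest cell, that ratio was 0.81 and 0.83. Its reads may be shared with the overlapping gene Bmp6, as strand use in counting is not stated. The proline isomerases Ppib and Fkbp2 were 2-fold lower in none of the groups, with ratios of -0.60, -0.84 and -0.42 and of -0.86, 0.25 and 0.08. Pdia3, which works with the lectin chaperones, had medians of 219, 70.0, 315 and 350 RPKM and ratios of -1.04, 0.52 and 0.42. Txndc11 was scarce, with means of 6.06, 4.06, 9.98 and 8.13 RPKM. For Pdia4, another isomerase, 1 cell set a mean. Its PP ratio was 0.95 with a cell at 1253 RPKM and -2.52 without it, while its glucagon ratio was -2.22 in all cells and -2.47 without the highest.

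Both secreted ER stress proteins were 2-fold lower in glucagon and PP cells, where 21.1% and 30.4% of all genes were. Manf, a BiP-binding factor that keeps beta cells alive in mice, had medians of 82.6, 35.6, 64.1 and 4.34 RPKM and log2 ratios of -1.32, -0.69 and -1.70. Creld2 had medians of 11.7, 0.304, 0 and 0.246 RPKM and ratios of -1.23, -0.60 and -3.19. The PP cells had the lowest mean for both, with the highest PP cell at 116 RPKM for Manf and 13.0 for Creld2.

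Of the 11 degradation genes, 7 were 2-fold lower in glucagon cells, 4 in somatostatin cells and 7 in PP cells. The shares of all genes were 21.1, 26 and 30.4 percent. Edem1, a lectin that picks misfolded glycoproteins, had a median of 4.58 RPKM in insulin cells and 0, 0.121 and 0 in the others, with ratios of -2.63, -1.49 and -2.25. Sel1l, the scaffold of the ubiquitin ligase, had medians of 8.70, 0.375, 7.73 and 0.156 RPKM and ratios of -1.80, -0.69 and -2.93, so that somatostatin cells stood near insulin cells. Derl1, a channel component, had medians of 18.5, 0.353, 0.224 and 0.279 RPKM and ratios of -1.70, -2.52 and -1.74. Its relative Derl3 reached 1 RPKM in 58 of 395 insulin cells, or 14.7% (11.3 to 18.6), with a highest cell at 171 RPKM, and was listed at 0 in every glucagon, somatostatin and PP cell. Taken as 3 counts of the cells in a group, in place of the interval used above, a count of 0 allows a share of up to 9.09% of glucagon cells, 23.1% of somatostatin cells and 27.3% of PP cells, and the last 2 limits lie above the insulin share. In thinned cells 13.3% of insulin cells had a read. Derl2 had means of 30.7, 28.8, 3.38 and 12.2 RPKM, and so differed most in somatostatin cells, at -2.86. The lectin Os9 had means of 20.3, 13.2, 24.7 and 22.6 RPKM. Herpud1, a ubiquitin-like ER stress protein, had nearly equal means of 239 RPKM in insulin and 238 in glucagon cells. The medians were 177 and 61.9, and 1 glucagon cell at 3373 RPKM carried the mean. Without it the ratio was -0.77 in place of -0.01, and the formats gave -1.53 and 0.98.

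Of the 6 sensors and regulators, counting Wfs1, 1 was at least 2-fold lower in glucagon cells and 2 each in somatostatin and PP cells. These counts were near the shares of all genes, 21.1, 26 and 30.4 percent. Xbp1 had medians of 55.1, 16.7, 31.8 and 66.8 RPKM and log2 ratios of -0.83, 0.15 and -0.17. Atf6 had medians of 6.84, 2.14, 0.523 and 0.137 RPKM and ratios of -0.75, -0.60 and 0.30, where 1 PP cell at 204 RPKM set the last, which was -2.12 without it. The reads of Atf6 may include those of small genes that overlap it. Eif2ak3, the kinase Perk, had means of 9.90, 8.06, 2.47 and 3.88 RPKM and ratios of -0.27, -1.65 and -1.16. Its somatostatin ratio was -2.19 and -1.29 in the 2 formats, and its PP ratio -0.87 and -1.63. The small gene Gm23346 overlaps it. Ern1 had means of 1.70, 1.97, 0.539 and 0.725 RPKM. The high PP ratio of Atf6b, 1.88, rested on 1 cell at 85.7 RPKM, as it was -0.08 without that cell. Wfs1 was the gene that was 2-fold lower in glucagon cells, and Wfs1 and Eif2ak3 were those lower in somatostatin and PP cells.

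The wider pathway, 62 further genes for isomerases, glycan trimming, degradation, translocation and the stress response, were also lower in glucagon cells. There 23 were at least 2-fold lower and 6 higher, where 21.1% and 10.7% of all genes were. Their median log2 ratio was -0.61, against -0.17 over all genes. In somatostatin cells 18 were lower and 13 higher (median -0.17), where 26% and 21.2% of all genes were (median -0.02). In PP cells 21 were lower and 12 higher (median -0.34), where 30.4% and 16.8% of all genes were (median -0.30). The counts of somatostatin and PP cells were thus near the shares of all genes. Genes of the integrated stress response went in both directions. Chac1, a glutathione-degrading enzyme, had a mean of 33.0 RPKM in insulin cells, 2.17 in glucagon cells and 0.513 in somatostatin cells, and was listed at 0 in PP cells. Trib3, a pseudokinase, had a mean of 8.74 in insulin cells, 0.0346 in somatostatin cells, and was listed at 0 in glucagon and PP cells. It reached 1 RPKM in only 28.3 and 13.6 percent of the insulin cells of the 2 formats. Atf3, a stress-induced transcription factor, had a mean of 23.9 RPKM in insulin cells and 132, 163 and 266 in the others, ratios of 2.41, 2.71 and 3.42. In somatostatin cells the 2 formats gave 4.20 and -1.96 for Atf3. Fkbp11, an ER proline isomerase, had means of 85.3, 7.00, 72.6 and 30.5 RPKM, with a glucagon ratio of -3.43. Uggt2 and Rcn1 in glucagon cells (1.77 and 1.15), Mogs and Prdx4 in somatostatin cells (4.87 and 1.75), and Ppic and Gpx8 in PP cells (4.11 and 4.09) had the other highest ratios. Single cells set those of Mogs, Ppic and Gpx8, which were -2.15, -0.28 and -0.54 without the highest cell. Serp1, a translocon-associated stress protein, was low in PP cells at -3.74.

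Within insulin cells the genes varied together from cell to cell. Spearman's rho was computed within each column format for genes at 1 RPKM in at least 50% of its insulin cells, 34 genes and 561 pairs over 226 full-precision cells and 31 genes and 465 pairs over 169 rounded cells. The median rho of the pairs was 0.17 and 0.21, with 94.1% and 99.1% of the pairs above 0. Pairs of all genes passing the same minimum, 2389 and 1619 genes, had medians of 0.057 and 0.129. The share of those pairs above 0 was not computed. The number of genes detected and the mitochondrial share moved with this co-variation. The mean z score of the 31 genes shared by both formats had a rho of 0.47 and 0.76 with the number of genes detected and of -0.42 and -0.40 with the mitochondrial share. Given both of these measures, the median rho of the pairs was 0.117 and 0.067. The median over all genes was not computed given these measures. In the rounded cells 0.067 lay below even the unadjusted 0.129 of all genes. Whether the members co-vary more than other genes at equal detection was thus not tested. These are descriptions over cells that differ in depth and detection, and carry no test.

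By the smaller rho of the 2 formats, Pdia3 with Pdia6, both disulfide isomerases, came first (0.57 and 0.45), followed by Hsp90b1 with Pdia6 (0.53 and 0.43) and Sdf2l1 with Manf (0.47 and 0.43). Dnajb9 with Manf (0.44 and 0.42), Dnajb9 with Pdia6 (0.43 and 0.41), Pdia3 with P4hb (0.42 and 0.40) and Pdia6 with P4hb (0.42 and 0.40) came next. Erp44, P4hb and Calr, each with Manf, completed the first 10 (smaller rho 0.40, 0.39 and 0.38). Manf and Pdia6 each took part in 7 of the 20 strongest pairs. Hspa5 with Manf had the highest rho of any pair at full precision, 0.61, but 0.35 among rounded columns. Of 465 pairs measured in both formats, 49 had a rho of at least 0.3 in both and 0 were below 0 in both. The same counts over pairs of all genes were not computed. Pairs within a role and pairs across roles had medians of 0.157 and 0.171 for full precision, and 0.230 and 0.209 for rounded columns.

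**Figure D4:**
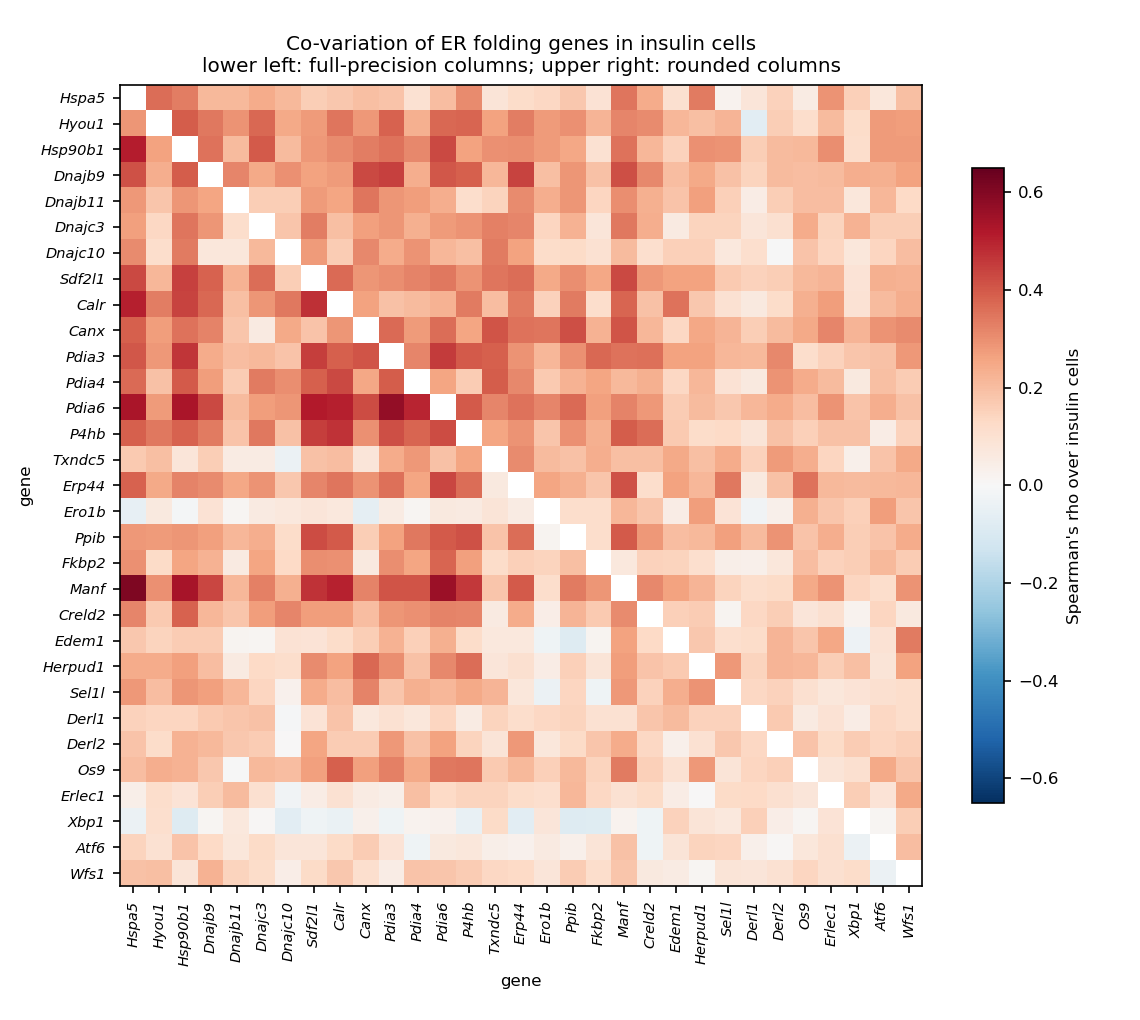
Spearman's rho between 31 of the genes over insulin cells, with 226 full-precision cells below the diagonal and 169 rounded cells above it, genes ordered by role. The darkest cells join Hspa5, Hsp90b1, Pdia6 and Manf below the diagonal, and at full precision Xbp1, Atf6 and Ero1b are pale.

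The transcription factors did not follow the chaperones closely. The mRNA of Xbp1 had a rho of 0.043 and 0.22 with the score of the other genes, lower than that of most genes in the table, as only 25.0 and 30.3 percent of genes had a lower one. Atf6 stood at 0.12 and 0.33, above 44.6 and 63.6 percent of those genes. Low values were not limited to Xbp1, as Ero1b had 0.10 at full precision and Derl1 0.20 in the rounded columns. Xbp1 was in 3 of the 5 lowest pairs, with Ppib, Hsp90b1 and Fkbp2 (-0.086, -0.083 and -0.078 at full precision), each of which was above 0 in the rounded columns. The other lowest pairs were Ppib with Edem1 (-0.081 and 0.20) and Hyou1 with Derl1 (0.14 and -0.071). The protein forms of Xbp1 and Atf6, which are spliced or cleaved into activity, are not measured here. By contrast Manf (0.68 and 0.54), Pdia6 (0.68 and 0.57) and Hsp90b1 (0.60 and 0.57) were near the top of the genes passing that minimum. Hspa5 was less steady, at 0.64 and 0.34. For genes of the integrated stress response, rho with the same score was 0.17 and 0.19 for Atf4, 0.18 and 0.35 for Ddit3, 0.12 and 0.16 for Trib3, 0.15 and 0.17 for Chac1, 0.12 and 0.33 for Ppp1r15a and 0.080 and -0.097 for Atf3. The medians over the genes passing that minimum were 0.14 and 0.29, and Ddit3 lay above both. Trib3 and Atf3 lay below both, but these genes, like Chac1, did not pass that minimum themselves. At full precision and in the rounded columns, Trib3 reached 1 RPKM in 28.3 and 13.6 percent of insulin cells. For Atf3 the shares were 29.6 and 32.0 percent. Whether Trib3 and Atf3 lie low among genes of equal detection was not tested.

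Outside the 39 genes, 5 of the 10 most like the score belong to the translocon or the signal peptidase. The share of all ranked genes that belong to these was not computed. Of 1531 genes with a mean of at least 20 RPKM, detected in at least 50% of the insulin cells of both formats, the first was Ssr1 (0.64 and 0.65), a subunit of the translocon-associated protein complex, as is Ssr3 (0.59 and 0.57). Spcs3 (0.59 and 0.58) and Spcs2 (0.52 and 0.53) belong to the signal peptidase, and Sec61a1 (0.66 and 0.51) is the channel itself. Fkbp11 (0.57 and 0.58), Nucb2 (0.53 and 0.55), the transport factors Bet1 (0.52 and 0.50) and Tmed3 (0.51 and 0.50) and the glycosylation subunit Ostc (0.49 and 0.58) completed the 10. Given detected genes and mitochondrial share, Ssr1 kept a rho of 0.59 and 0.33. Tmed3 differed from the members across groups, with means of 364, 464, 366 and 474 RPKM in insulin, glucagon, somatostatin and PP cells.

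Across insulin cells, the median Spearman correlation of the members with Ins2 was 0.026 at full precision, with 20 of 34 genes above 0, and -0.014 in the rounded columns, with 15 of 31 above 0. All genes had medians of -0.082 and -0.058. The score of the 31 genes had a rho of 0.067 and -0.049 with Ins2. Ero1b had the highest rho of the members in both formats, and the next by its smaller value was Dnajc3 (0.17 and 0.12). The rho of Ero1b with Ins2 was 0.37 and 0.31, above that of 99.9% of these 2387 and 1617 genes. It was 0.47 and 0.40 after rescaling without hormone and mitochondrial genes, and 0.31 and 0.36 given detected genes and mitochondrial share. Its rho with the score of the other members was 0.10 and 0.34, and 0.0098 and 0.14 given the same measures, below those of the luminal chaperones named above at full precision. Fkbp2 (0.27 and -0.040) and Sdf2l1 (0.22 and 0.034) had a higher rho with Ins2 at full precision than in the rounded columns. Hspa5 had -0.095 and 0.076, and Pdia6 -0.018 and -0.19. As Ins2 takes a large share of each cell's RPKM, the other values of a cell are by arithmetic lower where Ins2 is higher. The rescaled median rho of the members was 0.070 and 0.057.

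**Figure D5:**
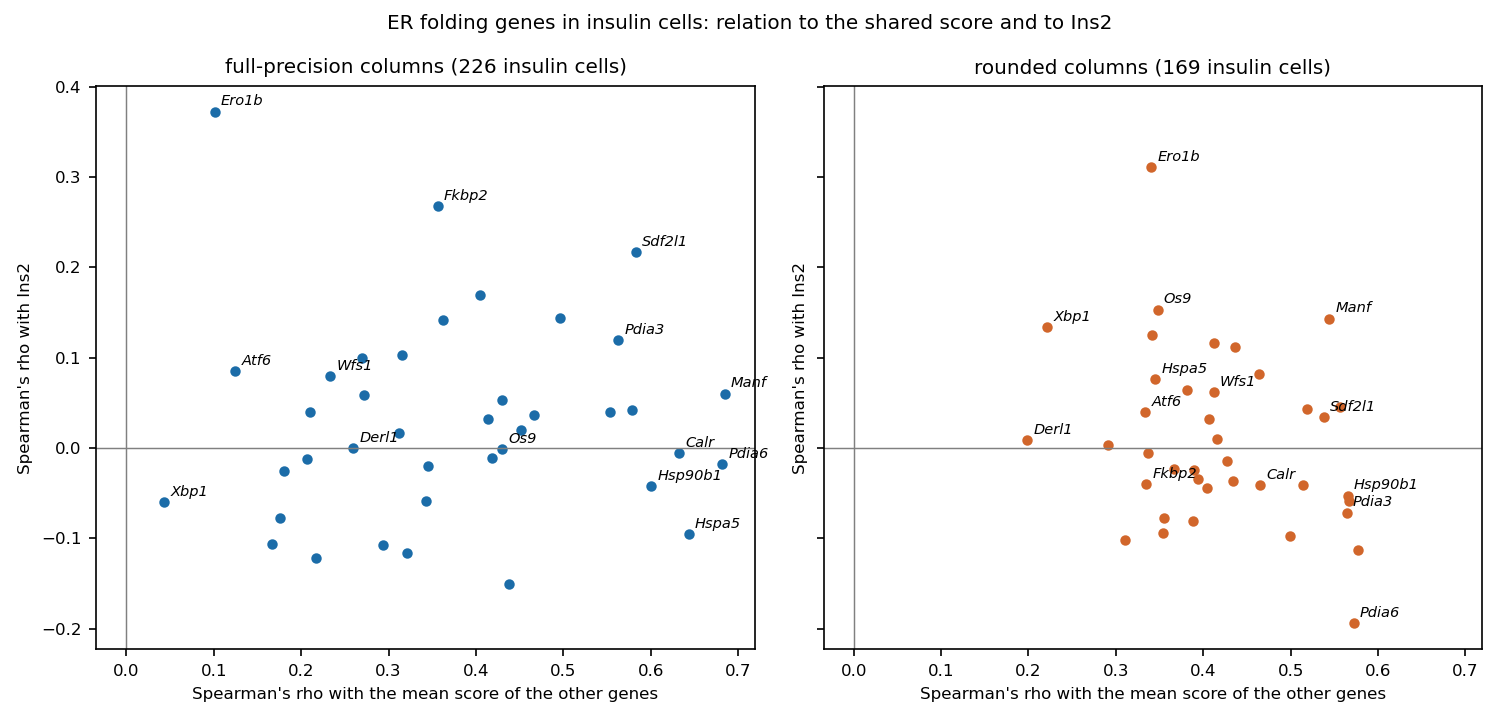
Each point is one of the ER folding genes at 1 RPKM in at least 50% of the insulin cells, with Spearman's rho with the score of the other genes on the x axis and with Ins2 on the y axis, for 226 full-precision cells (left) and 169 rounded cells (right). Ero1b is at the top of both panels (0.37 and 0.31 with Ins2), while Manf, Pdia6 and Hsp90b1 lie to the right, at lower rho with Ins2.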

How the data were processed

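RNA was measured in 622 single cells, with 1 library each. Per the labels' protocols, cDNA was made on the capture chip with a SMARTer kit and libraries with Nextera XT. The authors deposited 1 table of RPKM values per gene and cell. CASAVA 1.8.2, FastQC and the build GRCm38 (mm10) are named, per the submitters' processing notes. Which aligner, counter, annotation and strand setting they used is not given in the sources used here. Of the members, 19 of the 39 overlap another annotated gene in their spans from start to end, introns included and on either strand. Whether reads were shared was not tested, and the share of all genes with such an overlap was not computed. RefSeq symbols matched 39725 of the Entrez IDs, and 4723 had none.

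Comparing a gene's RPKM between cells gave back whole read numbers for 23045 genes, all 39 members included. Of values under 100 reads, 100% (full precision) and 99.938% (rounded) were whole within 0.05. These reads served for depth (2461 to 6111765 reads per cell) and for thinning to 250000 reads, which left out 8 cells. Cells are not replicates, so no count model, test or standard error was used. The requirement of 90% of hormone RPKM in 1 hormone left out mixed cells and possible doublets, and no doublet caller was run. Ratios used a pseudocount of 1 RPKM and a minimum of 1 RPKM for the mean of the 2 group means. Thinning, ratios, correlations and the depth recovery used Python 3.11.15, numpy 2.4.6, pandas 2.3.3 and scipy 1.17.1. The ratios, correlations and depth recovery, but not the thinning, were tested on simulated data.

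Named in full were fixed members of each role, the 5 highest and 5 lowest members per comparison with at least 5 RPKM in either group, the 3 highest and 3 lowest other pathway genes, the 10 highest and 5 lowest pairs and the 10 genes most like the score. Others were named after their values were seen. The members and lists were chosen with earlier results of these data known. Alternatives covered the pseudocount, the filter, rescaling, medians, cell filters, column format and the correlation measure.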

Additional observations from a re-analysis of the deposited data

How the results depend on the processing

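No paired analysis was possible because all cells belong to 1 sample and no test was made. In glucagon cells, 18 to 31 of the 39 genes were at least 2-fold lower under the alternatives run, against 3.65% to 39.8% of all genes, and 1 gene, Atf6b, was 2-fold higher in the full-precision columns alone. In somatostatin cells the count of lower genes, with the share of all genes in brackets, was 5 (4.26%) with a pseudocount of 10, 16 (31.6%) after rescaling, 19 (35.5%) with group medians, 22 (44.5%) in the rounded columns, 26 (82.9%) at 99% of the hormone sum, which left 1 somatostatin cell, and 19 (52%) without the highest cell of each gene. The count of higher genes there was 0 with a pseudocount of 10, after rescaling, with medians, with at least 3000 genes per cell and without the highest cells, and 5 at 99%, where the median log2 ratio was -2.55. In PP cells 31 genes (49% of all genes) were lower at 99%, which left 5 PP cells, 23 (48.6%) in the rounded columns and 29 (57.5%) without the highest cells, with median ratios of -1.87, -1.63 and -1.51, and the median ratio was -2.09 with group medians. The number higher in PP cells was 0 with a pseudocount of 10, with medians, at 99% and without the highest cells, 3 in the rounded columns, and 2 with at least 3000 genes or without cells holding markers of other types. Atf6b in PP cells turned from 1.88 to -1.49 at 99%, -1.66 in the rounded columns and -0.081 without its highest cell. In the rounded columns the median rho of pairs was 0.067 given detected genes and mitochondrial share, and the median with Ins2 was 0.14 by Pearson's r. The element was in 17 genes with 1 mismatch allowed. Apart from the steps whose construction removes cells, the cause was not tested. The other 132 of these values stayed close to the reported ones, which for a count meant within 1.5 times. Among them, the count of lower genes in PP cells was 22 (42.2%) without cells holding markers of other types. It was 21 after rescaling (32.9%) and 21 with group medians (39.2%), where the reported count was 15 (30.4%). Of the single-gene values 1117 stayed close, 239 moved and the 3 of Atf6b above turned in sign from a ratio past 2-fold. Ratios within 2-fold also turned in sign. Without the highest cell this held for Dnajb9, Canx, Pdia4, Txndc11, Fkbp2, Os9 and Atf6 in PP cells. In somatostatin cells it held for Pdia4, Pdia6, Txndc11, Fkbp2, Os9 and Xbp1, and in glucagon cells for Atf6b and Ern1. The alternatives on near-identical columns, on cells with markers of other types, on matched insulin cells and on the highest cell were chosen after seeing the data. Leaving out near-identical columns moved none of the counts beyond 1.5 times. The somatostatin means rest on 13 cells and the PP means on 11.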

Other observations

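Of the 141 cells in which no hormone reached 90%, 65 combined glucagon with insulin, 28 insulin with somatostatin, 23 PP with insulin, 16 PP with somatostatin, 8 PP with glucagon and 1 glucagon with somatostatin as their 2 leading hormones. Ero1b had medians of 118, 127 and 69.0 RPKM in the 3 combinations that hold insulin, and 0.276 RPKM (0 to 17.9) in the PP with somatostatin cells. In the 8 PP with glucagon cells its median was 16.4 RPKM (0.427 to 59.2), and the glucagon with somatostatin cell had 15.0. In the first 4 combinations Hspa5 did not follow that order, with medians of 377, 621, 357 and 648 RPKM, nor did Hsp90b1, with 358, 657, 474 and 700. Wfs1 had medians of 6.37, 22.7, 4.60 and 0.490 RPKM in those 4. Whether these cells are doublets was not tested.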
